A study of Mus musculus with 2 samples.

Results

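Messenger RNA levels of mitochondrial ribosomal proteins were measured in activated mouse B cells, infected with a retrovirus that carried either the microRNA miR-181b or a control vector. The members were all genes whose name on the array begins with Mrpl (large subunit) or Mrps (small subunit) followed by a digit. These were 75 of 27962 gene names, 46 of the large and 29 of the small subunit. All 75 were measured, meaning that both RNAs gave a signal well above background on each array, and none was saturated. In the mean of both arrays no member reached 1.5-fold. At 1.2-fold, where both arrays had to share a sign, 3 members were lower (5.42% of all measured genes were), namely Mrpl14, Mrpl23 and Mrpl45. By the same rule 2 members were higher (6.03% of all measured genes were), namely Mrpl4 and Mrpl37. All 5 belong to the large subunit. These counts depended on the processing. Without the intensity-dependent loess normalisation 46 members were lower and 0 higher by this rule, where 35.9% of all genes were lower and 0.982% higher. The scanner's own log ratio put 5 lower, and array 2 alone put 17 lower and 5 higher. Shares of all genes were not counted for these settings, so these counts cannot be set against them. Array 2 spread all genes more widely (SD 0.31, against 0.22 on array 1).

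Primary B cells came from spleens of C57BL/6 mice by removal of CD43-positive cells, and grew in lipopolysaccharide (LPS, 25 µg/ml) and interleukin-4 (IL-4, 10 ng/ml), which activate B cells. They were exposed to retrovirus for 20 h with polybrene (8 µg/ml), a polymer that aids infection. Cells positive for green fluorescent protein (GFP) were sorted 2 days after transduction. One group carried a control-GFP vector and the other a miR181b-GFP vector, so both groups had been stimulated, infected and sorted alike. Ratios therefore describe cells with an added microRNA, as a sorted mixture of infected cells, and not the loss of one. The number of animals is not given in the sources used here. RNA integrity numbers were 9.7 to 9.8, and 2 µg was labelled. There was 1 RNA per vector, and both were hybridised together on 2 whole-genome arrays with exchanged dyes. Array 1 carried the miR-181b RNA in the red dye Cy5 and array 2 carried it in the green dye Cy3. The arrays repeat 1 pair of RNAs, so no test between conditions was possible and no p-value is given. Every ratio is the log2 of miR-181b over control, and the number after ± is the distance of either array from their mean, a technical spread without variation between cultures.

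Each array held 45018 spots, of which 43379 were not controls. Of these 43379 spots, 64.7% to 67.7% were well above background in a channel. Over both arrays and both dyes, 71 to 562 of them were saturated. All 7 B cell markers looked up were measured, with net signals (after subtraction of local background) of 4393 to 65206, while the 5 T cell markers gave 29 to 212. Markers of other cells were also measured, at 2 to 5 genes per list. Ncr1 of natural killer cells was not well above background. The highest net signals of the measured ones were 14856 for Hbb-b1 of erythroid cells, 3026 for Emr1 of macrophages, 1707 for Flt3 of dendritic cells and 620 for Prf1 of natural killer cells. The 7 B cell markers had mean ratios of 0.069 to 0.86, all above 0, but 6 had opposite signs on the arrays and 3 were saturated. Cd79a was higher on both arrays (0.16 and 1.56, mean 0.86). Within each of the other cell types the markers did not share a direction. Of the macrophage genes Lyzs had a mean ratio of -0.49 and Itgam 0.27, of the erythroid genes Hbb-b1 had -0.29 and Hba-a1 0.39, and Prf1 had 0.34. Their part in the ratios of the mitoribosomal genes was not tested. In bulk RNA, fewer cells of a type and less RNA per cell cannot be told apart.

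Mitochondria carry their own ribosome, which translates the few messenger RNAs of mitochondrial DNA into core subunits of the respiratory chain and ATP synthase. Its RNAs are made inside the organelle, while all its proteins are encoded in the nucleus, made on cytosolic ribosomes and imported. The small subunit reads the messenger RNA, and the large subunit joins amino acids and is held at the inner membrane, where new proteins are inserted. Some of the proteins descend from bacterial ribosomal proteins and others are found only in mitochondria. Activated lymphocytes increase their mitochondrial mass. A few names mislead: in the known structure the products of Mrps18a and Mrps30 lie in the large subunit, and that of Mrps36 is now known as a component of the 2-oxoglutarate dehydrogenase complex.

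The sequence of the microRNA shows what it can pair with. A microRNA binds messenger RNAs mostly through its seed, bases 2 to 8, here in capitals. The mature sequence is from RefSeq (GRCm38.p6), where it lies on the plus strand at chr1:137966650-137966673.
mmu-miR-181b-5p: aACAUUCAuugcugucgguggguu
The DNA letters that pair with the whole seed are TGAATGT. Among the 125 array probes of the members, 2 (1.6%) held these letters in the transcript's sense, against 393 of all 41174 probes (0.954%). Both are shown with 10 bases on either side and the letters in capitals.
Mrpl13: agcaagagacTGAATGTttcctgaagt
Mrpl16: aattaaagttTGAATGTaacctcaggg
Mrpl13, a bacterial-type protein of the large subunit, had log2 ratios of 0.14 on array 1 and -0.15 on array 2. Mrpl16, which in bacteria helps to position transfer RNA, had 0.29 and -0.098. Neither gene was lower on both arrays. A probe covers only a short stretch of a transcript, so these counts do not show which members hold the letters elsewhere.

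Large subunit genes had a median ratio of -0.048, from 0.036 on array 1 and -0.13 on array 2. Of the 46 genes, 8 were higher on both arrays, 13 were lower on both and 25 had opposite signs. Among all 17713 measured genes 24.4% were higher on both arrays, 27.4% lower on both and 48.2% of opposite signs. Small subunit genes had a median of -0.022, from 0.033 and -0.090, with 6 of 29 higher, 8 lower and 15 of opposite signs. The large subunit thus had the slightly higher median on array 1 and the lower one on array 2. For single genes, the median distance of an array from the gene's mean was 0.12 in the large and 0.11 in the small subunit. That distance is not the spread of a subunit median. For all 75 members, 18.7% were higher on both arrays, 28% lower and 53.3% of opposite signs, shares near those of all genes. The median of all measured genes was -0.0052. Without loess the medians were -0.43 for the large and -0.41 for the small subunit, beside -0.20 for all genes, and no member of the large subunit was then higher on both arrays while 30 were lower. In the small subunit 0 were then higher and 22 lower, and of all genes 9.05% were higher and 55.3% lower.

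**Figure D1:**
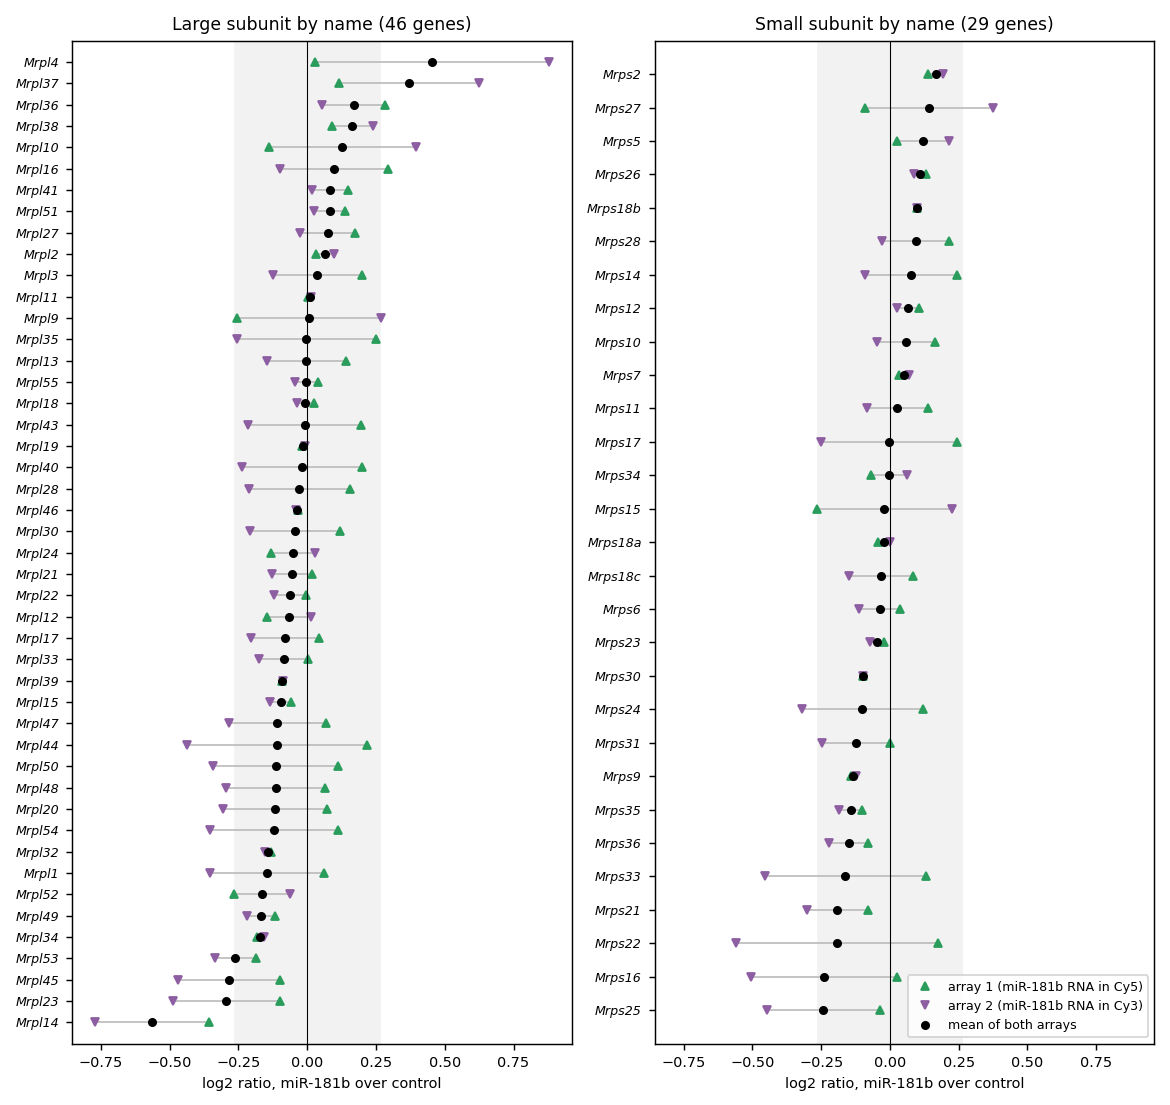
Log2 ratio of miR-181b over control (horizontal axis) for each of the 46 large and 29 small subunit genes, sorted by their mean. Triangles are the arrays, black points the mean of both, and the grey band spans 1.2-fold either way; Mrpl14, Mrpl23 and Mrpl45 lie left of the band and Mrpl4 and Mrpl37 right of it.

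After loess the members stayed close to 0, whereas without it the subunit medians were -0.43 and -0.41. The mean of both arrays was within 0.2 of 0 for 67 members (89.3%), against 78.2% of all measured genes. Both arrays alone were within 1.5-fold for 72 members (96.0%), against 92.9% of all genes. Members were brighter than most genes (median percentile 83.4) and never saturated, and these shares of all genes were not matched for brightness. The mean spanned -0.57 to 0.45 in the large subunit (SD over genes 0.16) and -0.24 to 0.17 in the small subunit (SD 0.12), and the SD over all measured genes was 0.19. At 1.5-fold the counts of higher and lower members were 0 and 0, where 0.813% of all genes were higher and 0.508% lower.

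Mrpl14 had the lowest ratio. Its protein, of bacterial descent, lies at the face where the subunits meet. On array 1 its net signal was 31608 in the miR-181b RNA and 21604 in the control RNA, and on array 2 it was 13040 and 51489. For comparison, Mrpl19, a gene close to 0, gave 3189 and 1852 on array 1 and 1639 and 3216 on array 2. Mrpl19 was dimmer (mean log2 intensity 11.24, against 14.67 for Mrpl14). Mrpl43, of a brightness nearer to that of Mrpl14 (14.94), had a mean ratio of -0.0097. It gave 46316 and 21442 on array 1 and 18909 and 51223 on array 2. Cy5 was the brighter dye for each of these genes on both arrays. The excess of control over miR-181b signal on array 2 was larger for Mrpl43 than for Mrpl19, and largest for Mrpl14. After normalisation Mrpl14 had -0.36 on array 1 and -0.77 on array 2, a mean of -0.57 ± 0.21. Both arrays put it lower, by unequal amounts. It had 1 probe, so a second probe could not be set beside it.

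Mrpl23 and Mrpl45 were the other 2 members lower by more than 1.2-fold. Mrpl23, a protein of the rim of the peptide exit tunnel, had -0.10 and -0.49, a mean of -0.29 ± 0.19. Mrpl45, a mitochondrial protein by which the large subunit is held at the inner membrane, had -0.098 and -0.47, a mean of -0.28 ± 0.19. On these probes array 1 alone left both genes within 1.2-fold, and array 2 gave most of the difference. The other measured probe of Mrpl45 had -0.50 on array 1 and -0.031 on array 2, a mean of -0.27. The means of its 2 probes lay within 0.017 of each other, but the arrays stood in reverse order. Mrpl53, which has no bacterial counterpart, was just short of 1.2-fold with -0.19 and -0.33 (mean -0.26 ± 0.073).

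Mrpl34 and Mrpl49 completed the 6 lowest large subunit genes that had the same sign on both arrays. Mrpl34, of bacterial descent, had -0.18 and -0.16 (mean -0.17 ± 0.012), the closest agreement of arrays among these 6. Mrpl49, found in mitochondria and not in bacteria, had -0.12 and -0.22 (mean -0.17 ± 0.051). Its other probes had means of 0.0063 and 0.053, so its 3 probes did not share a sign. Mrpl52, next in order, had -0.27 and -0.061. Its second measured probe had opposite signs, 0.018 and -0.62 (mean -0.30), and was dimmer (mean log2 intensity 8.79, against 14.13).

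Mrpl4 and Mrpl37 had the highest ratios, and in both the difference came mostly from array 2. Mrpl4, whose bacterial relative reaches into the exit tunnel, had net signals of 4669 in the miR-181b RNA and 2595 in the control RNA on array 1, and 2904 and 3110 on array 2. The ratios were 0.028 and 0.88, a mean of 0.45 ± 0.43. The half-distance between the arrays was thus nearly the size of the mean, and array 1 alone showed almost no difference. Mrpl37, a protein of mitochondria alone, had net signals of 2138 and 1137 on array 1 and 1325 and 1600 on array 2. Its ratios were 0.11 and 0.62, a mean of 0.37 ± 0.25. Without loess the mean was 0.10 for Mrpl4 and 0.054 for Mrpl37. Each had 1 probe.

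The next large subunit genes lay within 1.2-fold. Mrpl36, the small bacterial-type protein bL36, had 0.28 and 0.055 (mean 0.17 ± 0.11). Mrpl38, a protein of the central protuberance, had 0.088 and 0.24 (mean 0.16 ± 0.075), and its 3 probes are described with the other genes that have several. Mrpl41 and Mrpl51 have no bacterial counterpart. Mrpl41 had 0.15 and 0.017 (mean 0.082 ± 0.065). Mrpl51 had 0.14 and 0.025 (mean 0.082 ± 0.057). Array 2 alone placed both within 0.03 of 0.

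After loess no small subunit gene passed 1.2-fold, whereas without it 18 were lower by that much (35.9% of all measured genes were). Mrps25, a mitochondrial protein without a bacterial counterpart, was lowest with -0.038 and -0.45 (mean -0.24 ± 0.21). Mrps21, of bacterial descent, had -0.080 and -0.30 (mean -0.19 ± 0.11). Mrps36, the dehydrogenase component, had -0.079 and -0.22 (mean -0.15 ± 0.072). These genes were lower on both arrays, more so on array 2. Mrps35 had -0.10 and -0.18 (mean -0.14 ± 0.042). Mrps9, whose bacterial relative touches transfer RNA, had -0.14 and -0.12 (mean -0.13 ± 0.0088), and its other probes had -0.17 and -0.14. Mrps9 thus had 3 probes and 2 arrays of 1 sign, with little distance between them. Mrps31, found in mitochondria alone, had -0.0013 and -0.25 (mean -0.13 ± 0.12), so that array 1 gave no difference.

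The 6 highest small subunit genes of 1 sign had means of 0.052 to 0.17 after loess, and without loess all 6 were below 0. Mrps2, the relative of bacterial S2, had 0.14 and 0.19 (mean 0.17 ± 0.027). Mrps5, near the entry of the messenger RNA channel, had 0.026 and 0.22 (mean 0.12 ± 0.095). Mrps26 had 0.13 and 0.089 (mean 0.11 ± 0.021). Its second probe gave 0.11, within 0.0044 of the first, whereas the other probes of Mrps2 and Mrps5 spanned 0. Mrps18b, 1 of 3 relatives of bacterial S18, had 0.098 and 0.10 (mean 0.099 ± 0.0011). Its other measured probe had 0.075 and -0.23 (mean -0.079), and the average of both probes was 0.010. That probe was dimmer (mean log2 intensity 6.90, against 9.29). Mrps12, a protein of the decoding centre, had 0.10 and 0.025 (mean 0.065 ± 0.040). Mrps7, which binds ribosomal RNA early in assembly, had 0.033 and 0.070 (mean 0.052 ± 0.019), and its other probe had -0.046, which left an average of 0.0030.

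The 40 genes of opposite signs included some of the widest distances between arrays. Mrps22, a mitochondrial protein, had 0.17 on array 1 and -0.56 on array 2. Mrpl44, which resembles a nuclease in sequence, had 0.22 and -0.44 on its brightest probe. Its other probes lay closer together, with -0.051 and 0.011, and with -0.13 and -0.038. Mrps16, of bacterial descent, had 0.027 and -0.50. On the brightest probe of each of these genes the mean was below 0 only because array 2 was. The reverse order was seen in Mrps27, a pentatricopeptide repeat protein, with -0.090 and 0.38, and in Mrpl10, the base of the stalk that recruits translation factors, with -0.14 and 0.40. Mrpl12, the stalk itself, had -0.15 and 0.013 and gave no direction. These genes were picked after their values were seen.

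The arrays gave no common order of the members. Across the 75 genes, which share both RNAs and both arrays, Pearson's r between array 1 and array 2 was -0.017 and Spearman's rho was -0.059. It was 0.059 within the large and -0.20 within the small subunit, and 0.029 across all measured genes. Array 1 placed 46 of the 75 members above 0 and array 2 placed 22. Of all 17713 measured genes, array 1 placed 9109 above 0 and array 2 placed 8066. Read by dye instead of by vector, members were on median 0.072 brighter in Cy5 than in Cy3 (log2, loess applied), and the median of all measured genes was 0.019. In this dye contrast 4 members passed 1.2-fold towards Cy5 and 1 towards Cy3, while 2.72% and 5.91% of all genes did. The count of members past 1.2-fold by dye was the same as the count by vector.

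**Figure D2:**
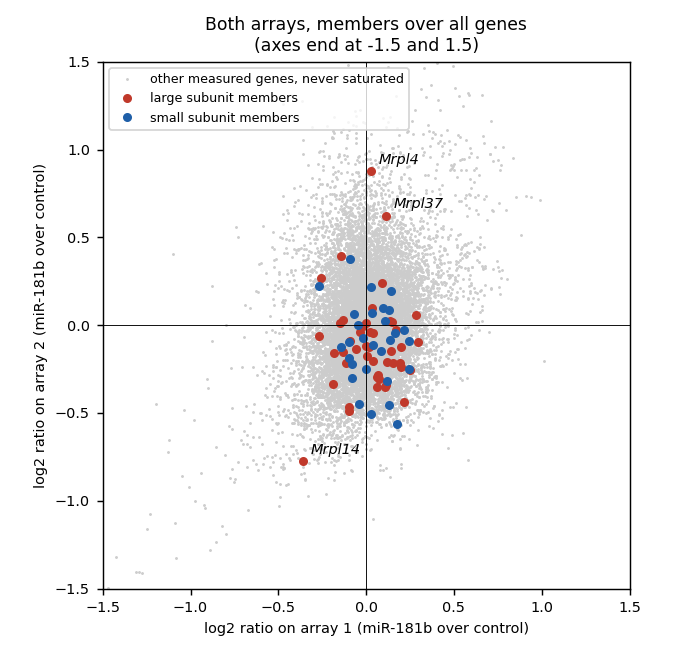
Log2 ratio of miR-181b over control on array 1 (horizontal) against array 2 (vertical), for large (red) and small (blue) subunit genes over all other measured genes that were never saturated (grey). The members form a cloud around 0 with no slope (r = -0.017), and Mrpl14, Mrpl4 and Mrpl37 lie at its ends, mainly along array 2.

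Array 2 spread the members more widely. Its member ratios ran from -0.77 to 0.88 (SD 0.26), and those of array 1 from -0.36 to 0.29 (SD 0.14). The same held over all genes, with an SD of 0.31 on array 2 and 0.22 on array 1. Members came from the brighter probes of the array: 74 were above the median brightness of measured genes and 44 were in the brightest 20%. Brightness depends on the probe as well as on the transcript, so no member's level was set against another's. Split by brightness into 3 groups of 25, the members had median mean ratios of -0.038 in the dimmest, -0.052 in the middle and -0.020 in the brightest group. In the brightest group array 1 gave 0.11 and array 2 gave -0.15, and all genes in that brightness range gave 0.032 and -0.048. In the dimmest group the members gave 0.028 and -0.084, and all genes of that range -0.0073 and -0.0026. In the middle group the members gave -0.0013 and -0.12, and all genes -0.0099 and -0.013. Opposite medians were thus seen in the dimmest and brightest members, and among all genes in the brightest range. The cause was not tested.

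**Figure D3:**
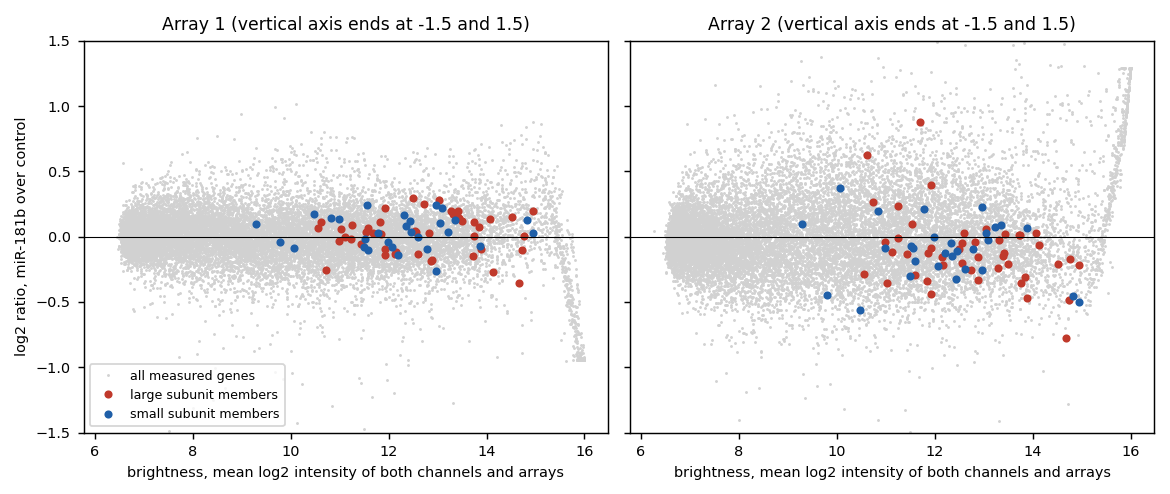
Log2 ratio of miR-181b over control (vertical) against brightness, the mean log2 intensity of both channels and arrays (horizontal), on array 1 and array 2, with members in colour over all measured genes in grey. Members lie in the upper part of the brightness range and below the brightest end, where saturated genes bend away from 0 in opposite directions on the arrays.

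Proteins of bacterial descent and proteins of mitochondria alone were set side by side. In the large subunit the 28 genes with a bacterial counterpart had a median of -0.037, with 4 higher on both arrays, 7 lower and 17 of opposite signs. The 18 without one had a median of -0.099, with 4 higher, 6 lower and 8 of opposite signs. In the small subunit the 18 genes of bacterial descent had a median of 0.012, with 5 higher, 2 lower and 11 of opposite signs. The 11 others had a median of -0.13, with 1 higher, 6 lower (54.5%, against 27.4% of all genes) and 4 of opposite signs. Those 6 were Mrps25, Mrps36, Mrps35, Mrps31, Mrps30 and Mrps23, and their means ran from -0.24 to -0.047. They include Mrps30 and Mrps36, whose products are a large subunit protein and a dehydrogenase component. In the small subunit the genes without a bacterial counterpart had the lower median on array 1 (-0.038 against 0.090), on array 2 (-0.18 against -0.066) and without loess (-0.49 against -0.36). In the large subunit array 1 gave the opposite order (0.079 against 0.021), and averaging each gene's measured probes gave -0.037 without and -0.039 with a counterpart. The differences were not tested.

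Some genes had several probes, which read different stretches of the same transcript or different transcripts. Of 30 members with more than 1 measured probe, 16 (53.3%) had probes of both signs, against 41.4% of such genes on the whole array. The range over a member's probes was 0.098 on median, against 0.14 over all 5697 genes with several probes. In the 16 members with probes of both signs it was 0.18 on median, and the 7 members whose range exceeded 0.2 were all among them. It was widest in Mrpl38, whose brightest probe had a mean of 0.16 and whose others had 0.33 and -0.091. The second probe of Mrps25 gave 0.13, against -0.24 for the first. Mrps17, of bacterial descent, had 0.24 and -0.25 on its brightest probe (mean -0.0037) and 0.54 and 0.19 on the other (mean 0.36). For these genes the direction depended on the probe.

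**Figure D4:**
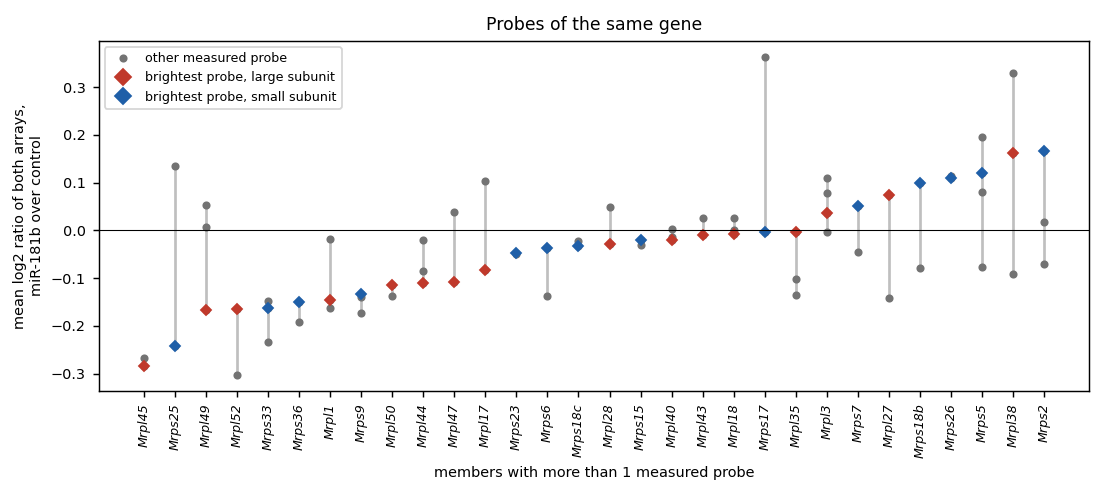
Mean log2 ratio of miR-181b over control (vertical) of each measured probe for the 30 members with more than 1 measured probe (horizontal). Diamonds are the brightest probes, used for all other results, and grey points the other probes; the bars are widest for Mrpl38, Mrps25 and Mrps17.

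Promoters are shown next because ribosomal protein genes of the mitochondrion are known to share binding sites for ETS-type activators (such as GABP, also called NRF2) and for NRF1. RefSeq (GRCm38.p6) entries of 250 bases before to 50 after the annotated start were matched by symbol for 66 of the 75 members. The ETS core CCGGAAG, on either strand, was found in 24 of the 66 (36.4%), in 13 of 40 large and 11 of 26 small subunit genes. It was found in 9.93% of all genes with an entry and in 12.9% of protein coding genes. The core letters of NRF1 sites, GCGCATG, were found in 8 members (12.1%), in 7 of the large and 1 of the small subunit, and in 5.4% of protein coding genes. The E-box CACGTG, bound by Myc, was found in 5 members (7.58%, against 8.91%), TATAAA in 5 (7.58%, against 14.8%) and CCAAT in 26 (39.4%, against 42.3%). Both strands were searched for all 5 motifs, and none of these letter strings contains another. A match is a description of letters and not a site.

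The 100 bases before the start are printed for the 4 members past 1.2-fold that had an entry, and for the 3 members with the ETS core, in capitals, in these 100 bases whose mean ratio lay nearest 0. All read 5′ to 3′ on the gene's strand. They lie at chr17:45686249-45686348 on the plus strand (Mrpl14), chr7:142532932-142533031 on the plus strand (Mrpl23), chr11:97315616-97315715 on the plus strand (Mrpl45) and chr4:107066867-107066966 on the minus strand (Mrpl37). The others lie at chr19:45006443-45006542 on the minus strand (Mrpl43), chr17:46110904-46111003 on the plus strand (Mrps18a) and chr9:105053168-105053267 on the plus strand (Mrpl3).
Mrpl14: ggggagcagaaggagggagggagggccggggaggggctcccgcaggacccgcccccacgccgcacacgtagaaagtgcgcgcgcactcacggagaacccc
Mrpl23: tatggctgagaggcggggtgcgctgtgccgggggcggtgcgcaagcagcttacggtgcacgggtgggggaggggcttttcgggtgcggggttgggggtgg
Mrpl45: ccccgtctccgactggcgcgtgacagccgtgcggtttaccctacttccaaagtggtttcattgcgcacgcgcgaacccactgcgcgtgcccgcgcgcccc
Mrpl37: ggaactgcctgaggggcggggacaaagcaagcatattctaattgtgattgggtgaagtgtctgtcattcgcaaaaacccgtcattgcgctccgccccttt
Mrpl43: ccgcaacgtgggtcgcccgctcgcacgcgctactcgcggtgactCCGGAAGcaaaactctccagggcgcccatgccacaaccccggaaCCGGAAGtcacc
Mrps18a: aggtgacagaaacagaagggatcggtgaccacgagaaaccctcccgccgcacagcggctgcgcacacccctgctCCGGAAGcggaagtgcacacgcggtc
Mrpl3: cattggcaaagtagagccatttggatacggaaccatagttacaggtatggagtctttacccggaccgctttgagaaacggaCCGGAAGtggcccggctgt
The core begins 56 and 12 bases before the start in Mrpl43, 26 before it in Mrps18a and 19 before it in Mrpl3. Mrpl43 had log2 ratios of 0.19 and -0.21, Mrps18a -0.045 and 0.00080, and Mrpl3, a protein of the large subunit's core, 0.20 and -0.13. Across members the median ratio was -0.051 with the ETS core and -0.038 without it, a distance smaller than that between the arrays.

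Other genes of mitochondrial translation were described by the same counts, to be read against 24.4% of all genes higher on both arrays, 27.4% lower and 48.2% of opposite signs. The 7 mitoribosomal proteins with other names had a median of -0.074 (0.0040 on array 1, -0.096 on array 2), with 1 higher on both arrays, 3 lower and 3 of opposite signs, none past 1.2-fold. Dap3, a GTP-binding protein of the small subunit, had -0.052 and -0.41 (mean -0.23 ± 0.18). Mrp63, a large subunit protein now called Mrpl57, had 0.22 and 0.085 (mean 0.15 ± 0.069). Gadd45gip1, a large subunit protein also known as CRIF1, had -0.034 and -0.15 (mean -0.093 ± 0.059). Their values lay within the range of the members.

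The 27 genes for assembly of the mitoribosome and modification of its RNA had a median of 0.066 (0.094 and 0.0014). Of these, 11 (40.7%) were higher on both arrays, 7 (25.9%) lower and 9 (33.3%) of opposite signs. By more than 1.2-fold 3 were higher and 2 lower, where 6.03% and 5.42% of all genes were. Mpv17l2, listed on the array as BC051227 and needed for ribosome assembly, had 0.26 and 0.52 (mean 0.39 ± 0.13). Eral1, a chaperone of the small subunit's RNA, had 0.094 and 0.65 (mean 0.37 ± 0.28). Rcc1l, listed as Wbscr16, had 0.20 and 0.51 (mean 0.36 ± 0.15). The 2 lower ones were Mterf4, listed as Mterfd2, which brings an RNA methyltransferase to the large subunit, and Ngrn. Mterf4 had -0.080 and -0.47, and Ngrn -0.15 and -0.38. Both were picked out after their values were seen. Genes of this list were thus found on both sides of 0.

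The 22 mitochondrial aminoacyl-tRNA synthetases and amidotransferase subunits, which charge transfer RNA, had the highest median of these lists, 0.10 (0.044 and 0.23). Of these, 11 (50% against 24.4% of all genes) were higher on both arrays, 3 (13.6% against 27.4%) lower and 8 of opposite signs, and 3 were higher by more than 1.2-fold, as were 6.03% of all genes. Gars, which also makes the cytosolic enzyme for glycine, had 0.10 and 0.68 (mean 0.39 ± 0.29). Fars2, for phenylalanine, had 0.13 and 0.50 (mean 0.31 ± 0.18). Ears2, for glutamate and listed as 3230401I01Rik, had 0.30 and 0.23 (mean 0.27 ± 0.036). Lars2 was saturated in 2 channels. Without loess the median of this list was -0.21, beside -0.20 for all genes, and that of the assembly list was -0.22.

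The 16 translation factors had a median of -0.049 (-0.073 and -0.059), with 2 higher on both arrays, 6 lower and 8 of opposite signs. By more than 1.2-fold 1 was lower, where 5.42% of all genes were. The gene past 1.2-fold was Mtrf1l, the release factor that ends translation, with -0.23 and -0.30 (mean -0.27 ± 0.038). Guf1, an elongation factor, had -0.16 and -0.33 (mean -0.25 ± 0.085). Gfm1, the elongation factor that moves the ribosome along, had 0.030 and 0.40 (mean 0.22 ± 0.19). The 17 genes of mitochondrial transcription and RNA processing had a median of -0.050 (-0.062 and -0.065), with 1 higher on both arrays, 8 lower and 8 of opposite signs. At 1.2-fold 1 was higher and 2 lower, where 6.03% and 5.42% of all genes were. Lonp1, a protease of the mitochondrial matrix listed as Prss15, had -0.71 and -0.24 (mean -0.47 ± 0.23). Tfam, which packages mitochondrial DNA and starts its transcription, had 0.16 and 0.44 (mean 0.30 ± 0.14). Mterf1a, listed as MTERF, had -0.22 and -0.36 (mean -0.29 ± 0.071).

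**Figure D5:**
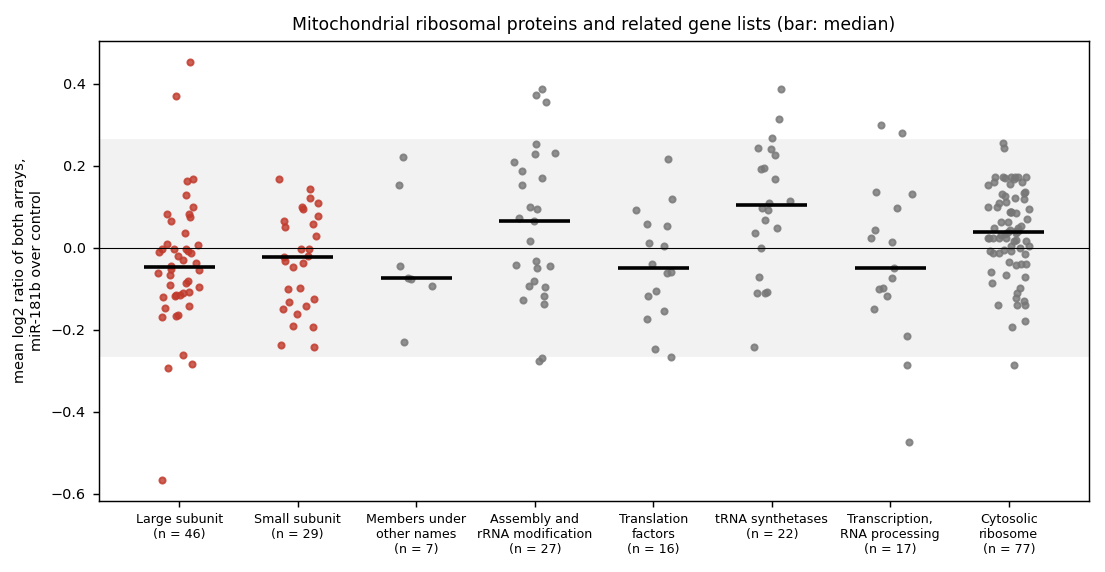
Mean log2 ratio of both arrays, miR-181b over control (vertical), for each measured gene of both subunits and 6 related lists (horizontal); bars are medians and the grey band spans 1.2-fold either way. Medians of the lists run from -0.074 for mitoribosomal proteins with other names to 0.10 for the tRNA synthetases, and most genes lie inside the band.

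The cytosolic ribosome could not serve as a counterpart. Of its 77 proteins 71 were saturated in at least 1 channel, their median ratios were -0.95 and 0.98 on the arrays, and 72 had opposite signs. The 6 that were never saturated had a median of -0.091, with 2 higher on both arrays, 2 lower and 2 of opposite signs. The mitoribosomal genes lay below the brightness at which this occurred.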

How the data were processed

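RNA of 1 culture per vector was measured on 2 Agilent whole mouse genome arrays with exchanged dyes. Per the file headers, the authors' scanner files were made with Agilent Feature Extraction 9.1.3.1 and give, for both dyes, an uncorrected mean intensity per spot with a median intensity of the surrounding background. The deposited log10 ratios (Cy5 over Cy3) come from signals from which that software had subtracted background and a lowess dye trend, per the file headers. They served as an alternative.

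The intensities were read into limma 3.58.1 (R 4.3.3). Normexp with an offset of 50 removed background, and loess within each array removed the dye trend, giving controls a weight of 0. Outlier spots were left out (7 and 21), saturated ones kept. The sign of array 2 was turned. Spots of a probe were averaged, and the brightest measured probe stood for a gene. Of 41174 probes, 22951 were named by accession, 6659 by symbol and 3109 by synonym through RefSeq (GRCm38.p6), and 8455 kept the name in the files. All 75 members kept their symbol. The steps were tested on simulated arrays.

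The members and gene lists were chosen with earlier results of these data known. Given in full were the 6 highest and 6 lowest genes per subunit with 1 sign on both arrays, genes whose probes differed in sign by over 0.3, and up to 3 genes per list with the largest mean of 1 sign. A difference was counted at 1.2-fold (0.263 on the log2 scale) or 1.5-fold of the mean, where both arrays shared a sign. The number of arrays limits the precision.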

Additional observations from a re-analysis of the deposited data

How the results depend on the processing

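With 1 RNA per vector, no result has an error between cultures. Without loess, with arrays centred on their medians, the median ratio was -0.428 for the large subunit, -0.408 for the small and -0.204 for all genes. Higher and lower on both arrays were then 0 and 30 large and 0 and 22 small subunit genes, beside 9.05% and 55.3% of all genes. By 1.2-fold 0 members were then higher and 46 lower, beside 0.982% and 35.9% of all genes. List medians were then -0.469 (other names), -0.219 (assembly), -0.377 (translation factors), -0.208 (synthetases) and -0.368 (transcription). The cause was not tested. The scanner's own log ratio put 5 members lower by 1.2-fold and the translation factors at -0.070, and leaving out background subtraction put the transcription list at -0.042.

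From single arrays, the large subunit's median ranged from -0.131 to 0.036, with 12 to 29 genes higher and 17 to 34 lower. The small subunit's ranged from -0.090 to 0.033, with 10 to 17 higher and 12 to 19 lower. Of all 17713 measured genes, 9109 were above 0 on array 1 and 8066 on array 2. Past 1.2-fold were 2 to 5 members higher and 3 to 17 lower. Shares of all genes past 1.2-fold were not counted for single arrays or for the scanner's log ratio. The lists ranged from -0.096 to 0.004 (other names), 0.001 to 0.094 (assembly), -0.073 to -0.059 (translation factors), 0.044 to 0.232 (synthetases), -0.065 to -0.062 (transcription) and -0.947 to 0.981 (cytosolic ribosome).

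Of 25 named members, 22 moved by more than the SD between the arrays without loess and 10 changed sign. With the mean of all probes 5 moved and 1 changed sign. The scanner's log ratio and the omission of background subtraction moved 1 each, and Aquantile moved 0. The settings on saturation and background could not act on members, since all were measured and none was saturated. Subunits assigned by the known structure gave medians of -0.045 and -0.027. With Mrpl42, listed as D10Ertd322e and added after the data were seen, the large subunit's median was -0.044. The authors' deposited value table was not used, since its rows could not be named through a probe column. No paired analysis was possible because there was 1 RNA per vector and no test.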
